A study of Mus musculus with 6 samples.

Results

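Genes of lipid and cholesterol handling, 10 of the 20649 genes in the matrix, were followed through the myeloid cells of CT26 tumors. They were chosen by name and grouped by role into the efflux genes Apoe, Abca1 and Abcg1, the storage genes Plin2 and Soat1, the uptake genes Lpl, Fabp4 and Fabp5, the lysosomal lipase Lipa and the oxysterol enzyme Ch25h. CT26 is a mouse colon carcinoma line. BALB/c mice carried subcutaneous tumors grown from 500000 CT26 cells, and these were injected 3 times with exosomes loaded with an antisense oligonucleotide (ASO), either exoASO-STAT6 (3 tumors), which targets the transcription factor STAT6, or the control exoASO-Scramble (3 tumors). Tumors of both groups were taken 24 hours after the last dose, and cells positive for the leukocyte marker CD45 were profiled by scRNA-seq. By the study's methods the mice were female and a few weeks old when bought.

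Macrophages take up lipoproteins and dying cells, free the cholesterol in lysosomes, and then either store it as esters in lipid droplets or hand it to lipoproteins outside the cell. The transporters ABCA1 and ABCG1 and the apolipoprotein APOE serve export, SOAT1 esterifies cholesterol and perilipin 2 (Plin2) coats the droplets. Lipoprotein lipase (Lpl) releases fatty acids from triglycerides, the binding proteins FABP4 and FABP5 carry them inside the cell, LIPA hydrolyses cholesteryl esters in the lysosome, and CH25H makes 25-hydroxycholesterol, an oxysterol with roles in sterol control and immunity.

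The suffixes 3 to 8 of the cell barcodes separate 6 libraries, which are named here by suffix. No label links a suffix to a tumor or a treatment, so exoASO-STAT6 was not compared with exoASO-Scramble. The libraries are therefore assigned to no treatment, and differences are given with the number of libraries that show them and with no p-value. Levels are UMIs (unique molecular identifiers, which count captured transcripts) per 1000000 UMIs of the same barcodes (CPM). Intervals are exact Poisson or binomial intervals at 95% and cover counting error only. The libraries held 867 to 2017 barcodes and 11492757 to 33902084 UMIs, and 16 barcode sequences occurred in more than 1 library.

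Monocytes/macrophages were taken as barcodes with at least 3 UMIs of Csf1r and Adgre1 together and no UMI of Cd3e, Ncr1 or Cd79a. This gate held 4650 of 9235 barcodes (50.4%), from 459 in library 3 to 1088 in library 8, at a median of 13381.5 UMIs. All 10 monocyte/macrophage markers had UMIs in it, at a summed 10245 CPM. The 6 neutrophil markers summed to 964 CPM (256 to 1789 over libraries), the 8 dendritic markers to 58.9 CPM, and the 8 T, NK and B cell markers to 27.5 CPM, with Cd3e, Ncr1 and Cd79a at 0 by the gate itself. Tumor markers (Epcam, Krt8, Krt18) summed to 0.97 CPM. Only 1 of 4 adipocyte markers was in the matrix, at 0.0416 CPM, and Adipoq was not among the symbols. States were defined within the gate by single genes. C1qa-high barcodes had at least 30 C1qa UMIs per 10000, Ly6c2-, Rsad2- and Mmp12-positive barcodes at least 3 UMIs of that gene, and Cd163-positive barcodes at least 2. Exactly 1 rule was met by 2334 barcodes, several by 1493 and none by 823. Unless stated otherwise, a state means the barcodes that met its rule alone, which were 1067 for C1qa, 640 for Ly6c2, 274 for Rsad2, 244 for Mmp12 and 109 for Cd163.

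Promoter windows of 250 bases before to 50 bases after the start site were found in RefSeq (GRCm38.p6) for 6 of the 10 genes, namely Apoe, Abca1, Plin2, Soat1, Lipa and Ch25h. Shown here are those of Apoe and Ch25h, the genes that stood higher in C1qa-high barcodes, and those of Plin2 and Abca1, which lay highest in other states. All 4 lie on the minus strand, at chr7:19699139-19699438 (Apoe, the window farthest upstream of 3), chr4:53159846-53160145 (Abca1), chr4:86670010-86670309 (Plin2) and chr19:34475099-34475398 (Ch25h). Capitals mark matches on either strand to AGGTCA (the half-site of many nuclear receptors), TTC and GAA separated by 4 bases (the spacing preferred by STAT6), TTTC repeated after 2 bases (the core of interferon-response elements), CACGTG (an E-box) or TGACGTCA (a cyclic AMP response element). The last of these was added after the windows had been read.
Apoe: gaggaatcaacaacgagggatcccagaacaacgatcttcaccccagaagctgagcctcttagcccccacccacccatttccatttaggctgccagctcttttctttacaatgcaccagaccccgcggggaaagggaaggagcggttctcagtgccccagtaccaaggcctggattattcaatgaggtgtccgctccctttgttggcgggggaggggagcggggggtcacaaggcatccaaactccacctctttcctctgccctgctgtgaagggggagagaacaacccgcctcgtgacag
Abca1: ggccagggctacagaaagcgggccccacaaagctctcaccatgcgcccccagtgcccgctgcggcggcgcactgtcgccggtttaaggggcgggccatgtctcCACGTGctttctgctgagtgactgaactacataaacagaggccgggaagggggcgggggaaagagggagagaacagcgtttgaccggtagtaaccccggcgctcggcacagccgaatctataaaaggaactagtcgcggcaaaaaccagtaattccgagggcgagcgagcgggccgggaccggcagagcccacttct
Plin2: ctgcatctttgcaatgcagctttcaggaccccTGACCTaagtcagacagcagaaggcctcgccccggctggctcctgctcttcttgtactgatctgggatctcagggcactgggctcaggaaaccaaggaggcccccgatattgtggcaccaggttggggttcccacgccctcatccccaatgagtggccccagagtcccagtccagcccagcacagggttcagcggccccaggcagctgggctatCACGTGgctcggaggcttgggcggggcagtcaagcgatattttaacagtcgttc
Ch25h: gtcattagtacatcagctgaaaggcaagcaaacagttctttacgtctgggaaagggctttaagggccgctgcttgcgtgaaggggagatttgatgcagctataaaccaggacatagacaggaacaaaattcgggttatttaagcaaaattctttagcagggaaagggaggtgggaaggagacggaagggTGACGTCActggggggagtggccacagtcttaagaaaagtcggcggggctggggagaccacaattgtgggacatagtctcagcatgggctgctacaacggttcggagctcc
The E-box occurred in the windows of Abca1 and Plin2 and in 7.15% of all 32851 promoter windows of the same length. AGGTCA occurred in that of Plin2 and in 16.3% of all, and TGACGTCA in that of Ch25h and in 1.79% of all. No window of the 6 genes held the STAT6-type spacing (6.95% of all) or the interferon-response core (3.44% of all), and none of the 5 motifs was found in the 3 windows of Apoe. The marked matches do not overlap one another. They describe these letters in these windows only.

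Among the efflux genes, Apoe (chr7:19696244-19701310) was the most variable between libraries. In the whole gate it was at 2066, 3030, 1990, 1045, 2494 and 1460 CPM in libraries 3 to 8, so that library 4 was 2.90-fold above library 6. Abca1 (chr4:53030789-53159988) ranged only from 152 CPM in library 6 to 209 CPM in library 5, and Abcg1 (chr17:31057694-31117984) from 101 CPM in library 4 to 156 CPM in library 6. Library 6 was thus lowest for Apoe and Abca1 and highest for Abcg1.

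For storage, Plin2 (chr4:86626910-86670217) was at 492, 351, 287, 613, 404 and 471 CPM in libraries 3 to 8, and Soat1 (chr1:156428108-156474328) lay between 121 CPM in library 4 and 201 CPM in library 6. Both storage genes were highest in library 6, where Apoe was lowest. The libraries also differed in states, with 42 C1qa-high and 103 Rsad2-positive of 685 gated barcodes in library 6, and 287 and 17 of 774 in library 4. Within C1qa-high barcodes library 6 was lowest for Apoe but not highest for Plin2 (344 against 355 CPM in library 3) or Soat1 (126 against 132 CPM in library 5). Within Rsad2-positive barcodes it was highest for both. The part of this mix was not tested. By the ratio of the highest to the lowest library the uptake genes spread most. However, Lpl (2.94) and Fabp4 (2.99, set by library 3 at its upper end) lay close to Apoe (2.90). Fabp5 (chr3:10012585-10016610) was at 783, 545, 438, 2059, 938 and 934 CPM, a 4.71-fold range that library 6 set alone at its upper end. Lpl (chr8:68880555-68906932) was at 50.6, 56.1, 44.6, 117, 131 and 91.3 CPM, low in libraries 3 to 5 and high in libraries 6 to 8. Fabp4 (chr3:10204342-10208616) was at 46.3 CPM in library 3 and at 15.5 to 24.7 CPM in the others. Lipa (chr19:34492316-34527474) lay between 73.1 and 126 CPM. Ch25h (chr19:34473783-34475148) was at 321, 390, 353, 170, 347 and 227 CPM, again lowest in library 6.

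**Figure D1:**
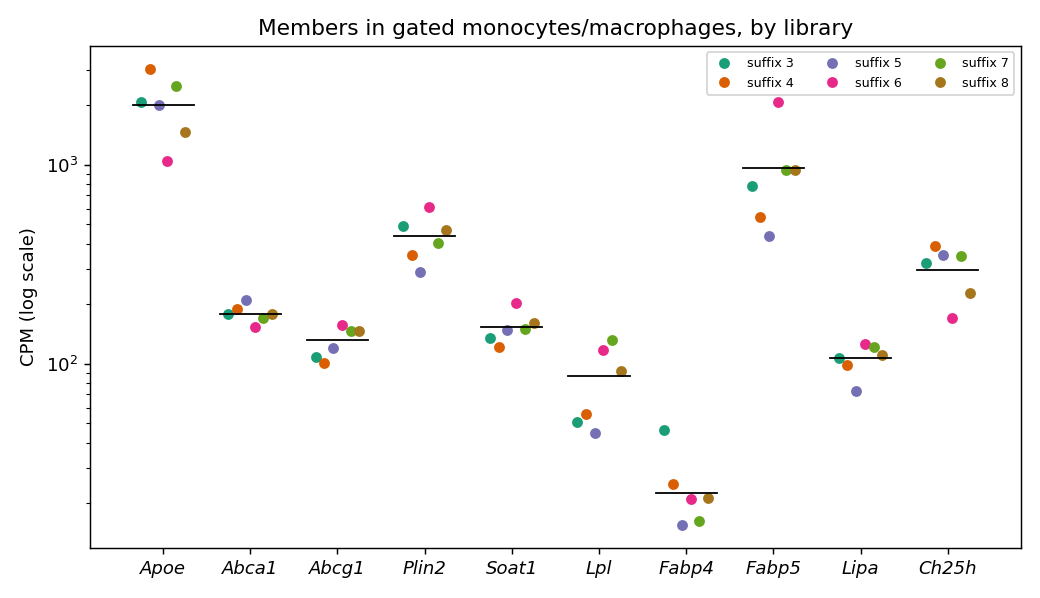
Level of each gene in gated monocytes/macrophages (CPM, log axis), with 1 point per library and a line at the level over all libraries. Fabp5 in library 6, at 2059 CPM, and Fabp4 in library 3, at 46.3 CPM, stand apart from the other libraries.

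UMIs of some genes were concentrated in few barcodes. After each gated barcode had been thinned to 3000 UMIs, which kept 4605 barcodes, the 5% of barcodes with most Lpl held 73.3% of its UMIs, against 50.4% for Fabp5, 47.5% for Ch25h, 31.1% for Apoe and 26.8% for Plin2. Fabp4 had a UMI in only 4.0% of these barcodes, so that its share was 100%. Lpl had a UMI in 11.7% of them. The variance of Lpl was 4.52 times its mean, whereas the median of 1446 genes within 1.5-fold of its mean level was 1.07 times. For Fabp5 the variance was 19.4 times the mean (median 1.76 over 148 such genes) and for Apoe 15.4 times (median 2.29 over 87 genes). Single thinned barcodes held up to 113 UMIs of Apoe and 101 of Fabp5. Soat1, at 1.24 times against 1.12, lay close to genes of its level.

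C1qa-high and Ly6c2-positive barcodes were compared to ask how the genes differ between complement-rich macrophages and monocytes. A gene was called when it differed at least 2-fold in summed CPM and in the same direction in every library. Of 7429 genes with a mean of at least 10 CPM, 3.65% were called higher and 3.61% lower in C1qa-high barcodes. All 10 members passed this filter on low values, and 2 of them, Apoe and Ch25h, were called higher and none lower. The median log2 difference was 0.29 over the members and 0.02 over all genes tested.

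Apoe was at 2480, 3330, 2277, 1448, 3642 and 1635 CPM in the C1qa-high barcodes of libraries 3 to 8, and at 1053, 1933, 1301, 595, 946 and 1337 CPM in their Ly6c2-positive barcodes. It was higher in C1qa-high barcodes in 6 of 6 libraries, although the groups overlapped between libraries, and the summed levels differed 2.41-fold (2684 against 1112 CPM, interval 2.36 to 2.47). With the Ly6c2, Rsad2, Mmp12 and Cd163 rules at 1 UMI and the C1qa rule unchanged, the difference was 0.87 on the log2 scale, under 2-fold. Ch25h was at 464, 481, 519, 214, 511 and 323 CPM in C1qa-high barcodes and at 49.4, 291, 114, 100, 71.4 and 37.4 CPM in Ly6c2-positive ones. It was higher in 6 of 6 libraries and 4.61-fold in all (438 against 95 CPM, interval 4.28 to 4.98). As a ratio the difference was smallest in library 4, at 0.73 on the log2 scale. The remaining efflux genes differed less, Abca1 by 1.30-fold (higher in 5 of 6 libraries) and Abcg1 by 1.14-fold (5 of 6). Lipa was 1.31-fold higher, in 6 of 6 libraries.

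The storage genes went the other way. Plin2 was at 355, 302, 264, 344, 274 and 343 CPM in C1qa-high and at 402, 365, 280, 438, 449 and 446 CPM in Ly6c2-positive barcodes. It was thus lower in C1qa-high barcodes in 6 of 6 libraries, at 0.750 of the Ly6c2 level (interval 0.718 to 0.784), which is under the 2-fold limit. Soat1 was at 0.652 of that level and was lower in 4 of 6 libraries. Lpl was at 0.540 of that level and was lower in 5 of 6 libraries, with library 6 the exception.

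Fabp5 changed direction with the weight given to each library. Summed over barcodes it was at 0.688 of the Ly6c2 level (498 against 725 CPM), yet it was higher in C1qa-high barcodes in 4 of 6 libraries. In libraries 6 and 7 it was at 1533 and 973 CPM in Ly6c2-positive barcodes, against 239 to 356 CPM in the other libraries. In library 7, 3 of these 147 barcodes held 841 of 1568 UMIs, and in library 6, 3 of 122 held 863 of 2872. The mean of the log2 differences within libraries was 0.17, and without library 6 the summed difference was 0.01. Fabp4 was higher in 4 of 6 libraries, but rested on 240 and 75 UMIs, with 0 UMIs in the Ly6c2-positive barcodes of library 3.

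**Figure D2:**
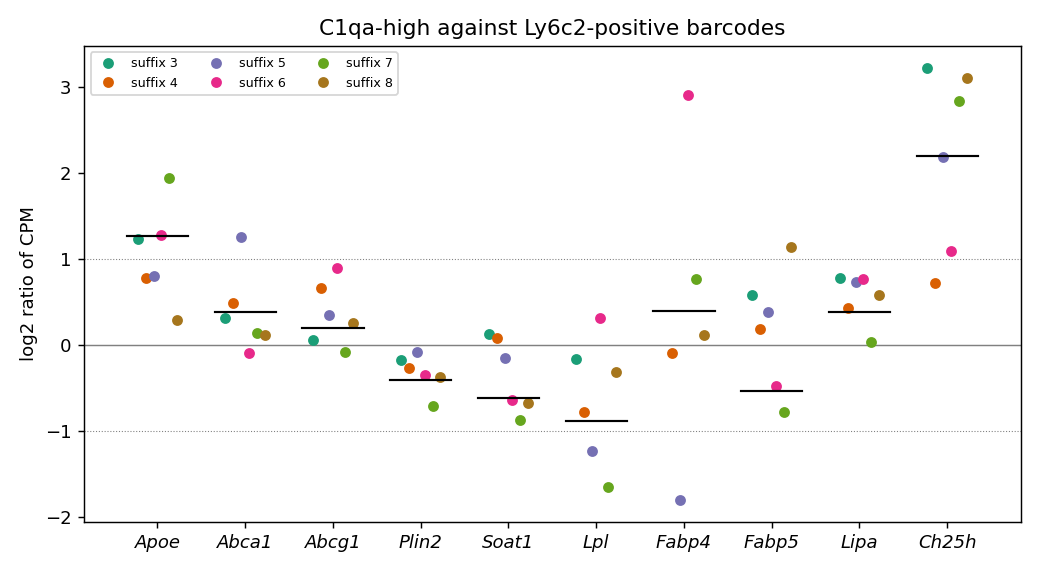
Difference between C1qa-high and Ly6c2-positive barcodes (log2 ratio of CPM), with 1 point per library, a line at the summed value and dotted lines at 2-fold. All 6 points of Apoe, Lipa and Ch25h lie above 0 and all 6 of Plin2 below it, while the points of Fabp5 fall on both sides; Fabp4 in library 3 has no point because 1 of its groups held 0 UMIs.

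Depth and neutrophil transcripts moved with these states. C1qa-high barcodes had a median of 16590 UMIs and Ly6c2-positive ones 10397, and the 6 neutrophil markers summed to 353 and 1033 CPM (89.2 to 658 and 116 to 1525 over libraries). Their part in the differences was not tested as such. Among barcodes with 8000 to 20000 UMIs the log2 difference was 1.57 for Apoe and 2.71 for Ch25h, against 1.27 and 2.21 at all depths. Without barcodes that met the neutrophil or dendritic rule it was 1.25 and 2.26.

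Of the 56 further lipid genes, 38 passed the filter, with 2 called higher and 3 lower in C1qa-high barcodes and a median log2 difference of 0.06. The scavenger receptor Stab1 was 3.36-fold higher (239 against 71.1 CPM) and the fatty acid synthase Fasn 2.64-fold higher (20.6 against 7.78 CPM). Among those called lower, Hilpda, an inhibitor of triglyceride breakdown on lipid droplets, was at 0.376 of the Ly6c2 level (136 against 361 CPM) and the apolipoprotein Apoc2 at 0.473.

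The other states were each compared with the gated barcodes that did not meet their rule. C1qa-high barcodes were thus in the rest but not in the state, and they were highest in Apoe and Ch25h and lowest in Plin2 and Soat1. The states held 274 of 1269 Rsad2-, 244 of 744 Mmp12- and 109 of 276 Cd163-positive barcodes. For comparison, the 823 barcodes that met no rule had Apoe at 1663, Ch25h at 234, Plin2 at 449 and Soat1 at 146 CPM. The part of this choice of rest in the differences was not tested. In Rsad2-positive barcodes, which carry an interferon-induced gene, no member was called, against 0.898% of 7459 genes called higher and 0.322% lower. Plin2 was at 472, 376, 295, 1033, 682 and 691 CPM in libraries 3 to 8. It was 1.97-fold above the rest (753 against 382 CPM) and higher in 5 of 6 libraries, and its log2 difference of 0.98 became 0.63 without library 6. Fabp5 was at 461, 287, 985, 3083, 1612 and 2362 CPM and 2.97-fold higher in sum, but higher in 4 of 6 libraries. One of these 4, library 5, rested on few barcodes, since 3 of its 29 held 262 of 331 UMIs and 1 of them 190. Library 6 gave 103 of the 274 barcodes, and without it the log2 difference of Fabp5 was 1.32 in place of 1.57. Abcg1 was 1.55-fold higher (5 of 6 libraries), and Apoe was at 0.592 of the rest and higher in 1 of 6. The neutrophil markers summed to 2006 CPM in this state, the most of the 5 states. The 8 dendritic markers summed to 91.3 CPM, against 58.9 CPM in the gate. Among them Ccr7 was at 54.8 against 11.7 CPM, while Zbtb46, Cd209a, Fscn1 and Siglech were lower than in the gate. The part of all these markers in the values of this state was not tested.

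In Mmp12-positive barcodes, which carry a macrophage elastase, no member was called either, against 1.51% of 7418 genes called higher and 2.12% lower. Abca1 was at 360, 268, 244, 277, 275 and 309 CPM and stood above the rest in 6 of 6 libraries, by 1.74-fold (289 against 166 CPM). Plin2 (1.44-fold) and Soat1 (1.45-fold) were also higher in 6 of 6 libraries, so that both storage genes shared this direction. Ch25h was at 0.532 of the rest and Lpl at 0.590, each higher in 1 of 6 libraries. Fabp4 was 3.74-fold higher in sum and higher in 5 of 6 libraries, but library 3 gave 126 of its 228 UMIs, 88 of them in 3 barcodes, and without library 3 the log2 difference was 1.04 in place of 1.90. Of the 56 lipid genes, 40 were tested here, with 2 called higher and 1 lower. The neutrophil markers summed to 338 CPM in this state against 964 CPM in the gate, and the dendritic markers to 42.6 against 58.9 CPM. The part of these markers was not tested.

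Cd163-positive barcodes, marked by a haemoglobin scavenger receptor, were called on the direction in the 4 libraries with at least 10 of them (3, 5, 6 and 8), and on sums over all 109. Here 2.7% of 7629 genes were called higher and 2.57% lower, and 2 members were called, Abca1 higher and Lpl lower. Abca1 was at 260, 389, 153 and 541 CPM in libraries 3, 5, 6 and 8, against 173, 183, 152 and 171 CPM in the rest, so that library 6, with 10 such barcodes, showed nearly no difference. Summed over all libraries Abca1 was 2.24-fold above the rest (383 against 171 CPM, interval 2.04 to 2.45), a sum that includes library 4 with 7 barcodes at 717 CPM. Over the 4 libraries alone, sums that were chosen after seeing the data, it was 2.15-fold (363 against 169 CPM, interval 1.94 to 2.37). Among barcodes with 8000 to 20000 UMIs the log2 difference of Abca1 was 1.0 in place of 1.16 and fell just short of 2-fold.

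Lpl was at 0, 21.9, 0 and 19.1 CPM in these 4 libraries, against 53.1, 49.9, 124 and 93.0 CPM in the rest. It had a UMI in only 0 of 12, 6 of 67, 0 of 10 and 2 of 12 Cd163-positive barcodes. In library 5, 3 of them held 13 of 16 UMIs. After thinning to 1000 UMIs, 2 of 109 had an Lpl UMI (1.83%, interval 0.22 to 6.47%), against 6.13% of the gate. Over the 4 libraries Lpl rested on 19 UMIs and was at 0.186 of the rest (16.2 against 87.0 CPM, interval 0.112 to 0.292). Over all libraries it was at 0.215 of the rest (24 UMIs), with library 4 going the other way (66.4 against 57.0 CPM). Fabp5 was higher in 4 of 4 libraries, by 1.48-fold over all libraries and 1.32-fold over these 4, and was not called. Apoe was at 0.926 of the rest over all libraries and at 1.18 over these 4, and Fabp4 at 0.550 and 0.240 (7 UMIs over the 4), with neither called. Of the 56 lipid genes, 40 were tested, with 3 called higher and 4 lower. Library 5 supplied 67 of the 109 barcodes, and their median depth was 9366 UMIs. The 8 dendritic markers summed to 134 CPM in this state against 58.9 CPM in the gate, the most of the 5 states. Of the 8, 5 were higher than in the gate, with Xcr1 widest apart at 51.2 against 6.76 CPM, and Ccr7, Fscn1 and Siglech were lower (8.0, 3.2 and 6.4 against 11.7, 10.9 and 11.4 CPM), while the neutrophil markers summed to 933 CPM. The part of these markers was not tested.

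Because libraries supplied the states unequally, states were also ordered by the mean CPM over libraries with equal weight. Apoe and Ch25h were highest in C1qa-high barcodes (means of 2469 and 418 CPM) and lowest in Ly6c2-positive ones (1194 and 111 CPM). Plin2 and Soat1 were lowest in C1qa-high barcodes (314 and 114 CPM), with either weighting. With equal weights both were highest in Mmp12-positive barcodes (620 and 212 CPM), but summed over barcodes both were highest in Rsad2-positive ones, Plin2 at 753 against 604 CPM and Soat1 at 214 against 213 CPM, and Ly6c2 came ahead of Cd163. For Plin2 the libraries of Mmp12 and Rsad2 overlapped, at means of 620 and 591 CPM. Abca1 was lowest in Ly6c2-positive barcodes (115 CPM), and its means were highest in Cd163-positive (336 CPM, 4 libraries) and Mmp12-positive ones (289 CPM, 6 libraries). These last 2 were not apart, since the Cd163 libraries ranged from 153 to 541 CPM and the Mmp12 libraries from 244 to 360 CPM. The uptake genes had no common order, and the first state of Lpl and of Fabp5 also turned with the weighting. Lpl was highest in Ly6c2-positive barcodes with equal weights (120 CPM) and in Rsad2-positive ones when summed over barcodes (142 against 133 CPM). That sum rested on few barcodes, since 3 of library 6 held 212 of its 535 UMIs, and 1 of these held 128. In Ly6c2-positive barcodes the highest single barcode held 104 of 1025 UMIs. Fabp5 was highest in Cd163-positive barcodes with equal weights (2176 CPM over 4 libraries) and in Rsad2-positive ones when summed (2174 against 1377 CPM). The Cd163 mean rested on few barcodes, since 3 of them held 220 of 298 UMIs in library 3, 224 of 342 in library 6 and 328 of 535 in library 8, while library 5, with 67 barcodes, was at 616 CPM. Fabp4 was highest in Mmp12-positive barcodes with either weighting (61.7 CPM with equal weights, 63.9 CPM when summed), but without library 3 that mean was 29.2 CPM, close to the 25.5 CPM of Rsad2-positive ones. The efflux genes had no common order either, since Abcg1 was highest in Rsad2-positive barcodes (167 CPM).

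**Figure D3:**
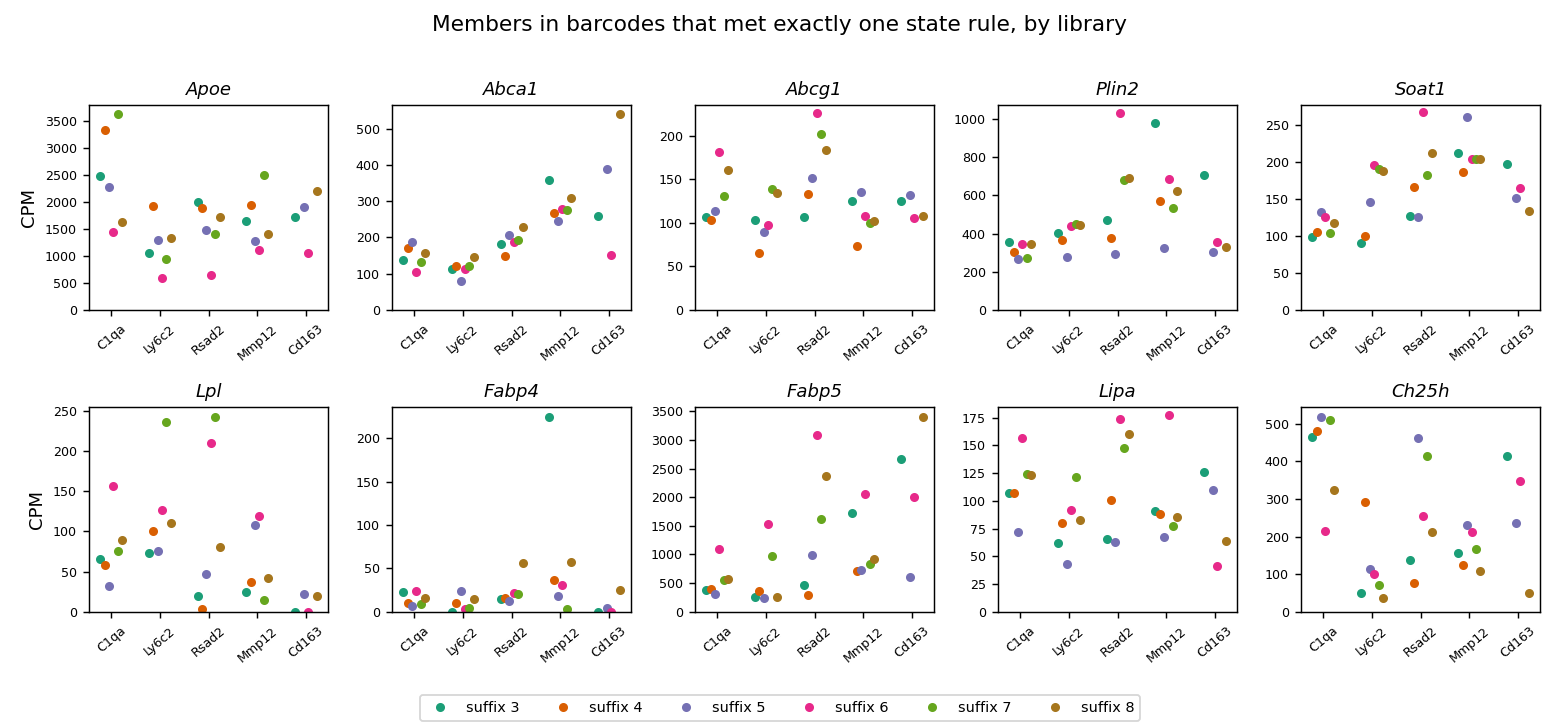
Level of each gene (CPM, linear axes from 0) in barcodes that met exactly 1 state rule, with 1 point per library that had at least 10 such barcodes. Apoe and Ch25h are highest on average in C1qa-high barcodes, Abca1 in Cd163- and Mmp12-positive ones, which overlap, and Plin2 is lowest in C1qa-high ones.

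Neutrophils and dendritic cells were examined to ask whether these genes are carried by other myeloid cells. The neutrophil rule, at least 5 S100a9 UMIs, was met by 1049 barcodes, but 566 of them were also in the macrophage gate and only 37 had no Csf1r, Adgre1, Cd3e, Ncr1 or Cd79a UMI. The monocyte/macrophage markers summed to 8305 CPM in these 1049 barcodes, so that they go against the name of neutrophils as a whole. Compared with the 3983 gated barcodes that met neither the neutrophil nor the dendritic rule, no member was called, against 1.92% of 7552 genes called higher and 0.0132% lower. Apoe, Plin2, Lpl and Lipa were lower in 6 of 6 libraries, although the summed level of Plin2 was 1.02-fold that of those 3983. How many of the 7552 genes were lower in 6 of 6 without the 2-fold limit was not counted. The median log2 difference was -0.11 over the members and -0.03 over all genes tested.

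Some members differed with the macrophage transcripts of the same barcodes. In S100a9-rich barcodes without lymphocyte UMIs, Apoe was at 529, 667, 1356 and 1895 CPM where Csf1r and Adgre1 together had 0, 1 to 2, 3 to 9 and 10 or more UMIs. Ch25h was at 72.6, 125, 141 and 296 CPM and Lpl at 8.07, 36.6, 79.1 and 94.0 CPM over the same steps. Lipa was at 44.4, 63.8, 89.5 and 110 CPM and Fabp4 at 4.03, 12.2, 19.6 and 22.9 CPM, so that these 5 genes were higher at each step than at the one before. The step with 0 rested on 1 UMI of Fabp4 and 2 UMIs of Lpl. Its intervals overlapped those of 1 to 2 for all 5 genes, and those of Fabp4 overlapped at every step. Between 0 and 10 or more the intervals did not overlap for Apoe, Ch25h, Lpl and Lipa. Plin2 took the course opposite to these 5 genes, at 859, 768, 656 and 404 CPM. Fabp5 was at 1525, 1766, 1670 and 1055 CPM, and Abca1 (178, 118, 182 and 188 CPM), Abcg1 (157, 141, 130 and 137 CPM) and Soat1 (206, 247, 204 and 149 CPM) followed no single direction over the steps. The median depth of these barcodes also rose, from 6555 to 8364, 12757 and 24101 UMIs, and its part was not tested. In the 37 barcodes with none of these UMIs, Plin2 (213 UMIs, interval 748 to 983 CPM) thus stood above the 435 CPM of the 3983 gated barcodes that met neither rule, and Apoe (131 UMIs, interval 442 to 627 CPM) below its 2065 CPM. These 37 barcodes came from 6 libraries with 2 to 13 each, and their depth, at a median of 6555 UMIs, was lower than in the gate. Their monocyte/macrophage markers still summed to 3385 CPM beside 11176 CPM of neutrophil markers.

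The dendritic rule, at least 1 Flt3 UMI, was met by 344 barcodes, of which 117 were in the gate and 100 had no Csf1r, Adgre1 or lymphocyte UMI. No member was called in the 344, against 4.98% of 7715 genes called higher and 0.946% lower. Apoe, Abca1, Plin2, Soat1, Lipa and Ch25h were lower than in the same 3983 gated barcodes in 6 of 6 libraries, with Apoe at 0.572 and Plin2 at 0.563 of their level. The share of the 7715 genes lower in 6 of 6 without the 2-fold limit was not counted. Over the members the median log2 difference was -0.59, and over all genes tested 0.01. The monocyte/macrophage markers summed to 5771 CPM in these 344 barcodes, beside 924 CPM of dendritic markers, and to 10245 CPM in all 4650 gated barcodes, and their part was not tested. In the 100 barcodes free of those UMIs, Apoe was at 61 CPM, Abca1 at 4.0 CPM and Ch25h at 6.0 CPM, from 61, 4 and 6 UMIs. For comparison, 691 lymphocyte barcodes with no Csf1r or Adgre1 UMI had these 3 genes at 101, 21.6 and 4.30 CPM, at a median depth of 6380 UMIs against 8726.5 in the dendritic barcodes. Apoe, Abca1 and Plin2 (76.0 against 114 CPM) were lower in the dendritic than in the lymphocyte barcodes. Soat1 was also lower (44.0 against 55.7 CPM), with overlapping intervals.

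Some other members were above the lymphocyte level in the 100 dendritic barcodes. Abcg1 was at 56.0 against 34.5 CPM and Lipa at 44.0 against 25.1 CPM, each with intervals that did not overlap, and Lpl at 10.0 against 4.13 CPM, from 10 and 25 UMIs with overlapping intervals. Fabp5 was at 801 against 274 CPM. Its 801 UMIs came mostly from barcodes with Ccr7 or Fscn1, markers of mature dendritic cells, and no UMI of Siglech, Xcr1, Clec9a or Cd209a, where it was at 2591 CPM with 746 UMIs, carried by 24 of 31 barcodes and up to 141 UMIs in 1 of them. In the 17 barcodes with Xcr1 or Clec9a and no UMI of the other markers it was at 32.4 CPM (8 UMIs). Barcodes with markers of several of these kinds were left out of both. This split was chosen after the values had been seen. Over libraries the 100 barcodes ranged from 178 CPM in library 7 to 2131 CPM in library 6.

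**Figure D4:**
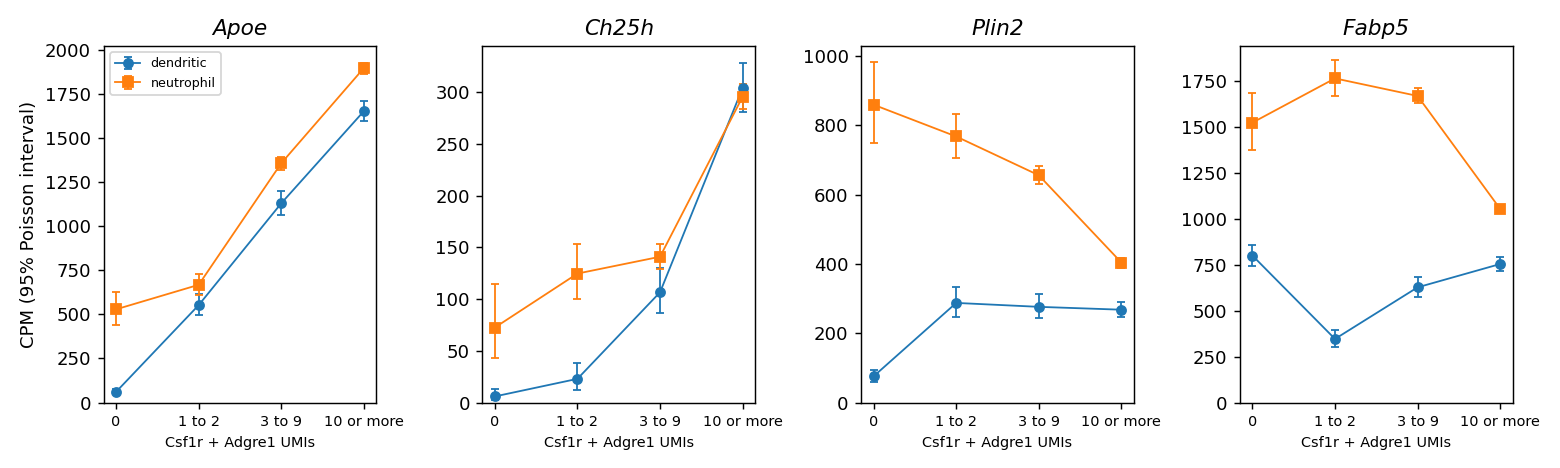
Levels (CPM, linear axes from 0, bars are exact 95% Poisson intervals) of 4 genes in neutrophil-rule and dendritic-rule barcodes without lymphocyte UMIs, by their Csf1r and Adgre1 UMIs. Apoe and Ch25h are higher with more macrophage UMIs in both kinds of barcode, whereas Plin2 in neutrophil-rule barcodes is at 859 CPM with none and at 404 CPM with 10 or more.

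Co-expression within the gate was described by Pearson's r of log2(UMIs + 1) across barcodes thinned to 3000 UMIs, computed in each library and given as the median of 6 libraries. Barcodes of a library are not independent replicates, and r is limited by sparse counts. Of 45 pairs of members, 8 had a median r of at least 0.1. The share of all gene pairs past this value was not counted. For each member, 95% of 4086 or 4087 genes, not matched for level, lay at or below an r of 0.03 (Fabp4) to 0.08 (Fabp5). The highest pair of members was Plin2 with Fabp5 (0.22, from 0.19 to 0.35 over libraries), followed by Abca1 with Fabp5 (0.15), Fabp4 with Fabp5 (0.15), Apoe with Fabp5 (0.14) and Apoe with Abca1 (0.14). The lowest were Soat1 with Ch25h (-0.10) and Apoe with Lpl (-0.10), both negative in 6 of 6 libraries. By role, the median over pairs was 0.07 within the efflux genes and 0.04 within the uptake genes, while the single storage pair, Plin2 with Soat1, had 0.09. Between roles it was 0.06 for storage with uptake genes, 0.06 for efflux with uptake genes and 0.04 for efflux with storage genes.

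Apoe and Ch25h both followed C1qa (r of 0.29 and 0.28, positive in 6 of 6 libraries) but not each other, with a median r of -0.07 that was negative in 5 of 6 libraries. Within C1qa-high barcodes alone it was -0.17. The genes nearest to Apoe were Ctss (0.32), Itm2b (0.32) and Lyz2 (0.30), of which Ctss encodes a lysosomal protease. Those nearest to Ch25h were the monocyte-attracting chemokines Ccl12 (0.43), Ccl7 (0.40) and Ccl2 (0.40). For comparison, 95% of 4086 genes had an r of at most 0.06 with Apoe and at most 0.08 with Ch25h.

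Plin2 was nearest to the ferritin gene Ftl1 (0.33), the protease gene Ctsl (0.30) and the haem oxygenase gene Hmox1 (0.30), and Soat1 to Bnip3 (0.16), Hmox1 (0.15) and Ero1l (0.14). Hmox1 was thus the gene that both storage genes shared among their nearest 3. Abca1 was nearest to Ctsl (0.25) and Pf4 (0.25), and Fabp5 to Ctsl (0.44), Ctsb (0.41) and Pf4 (0.38). Abcg1 was nearest to Psap (0.19), Ctsb (0.16) and Sdc3 (0.13), and Lipa to Ctsb (0.17), Psap (0.16) and Ftl1 (0.15), so that these 2 genes shared the lysosomal genes Psap and Ctsb. Lpl had the lowest first value of the 10 genes, with Ckb at 0.14, Psap at 0.12 and Actb at 0.11. Fabp4 was nearest to Fabp5 (0.15), the fatty acid receptor gene Cd36 (0.10) and Ctsd (0.09), and had a UMI in 4.0% of thinned barcodes.

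**Figure D5:**
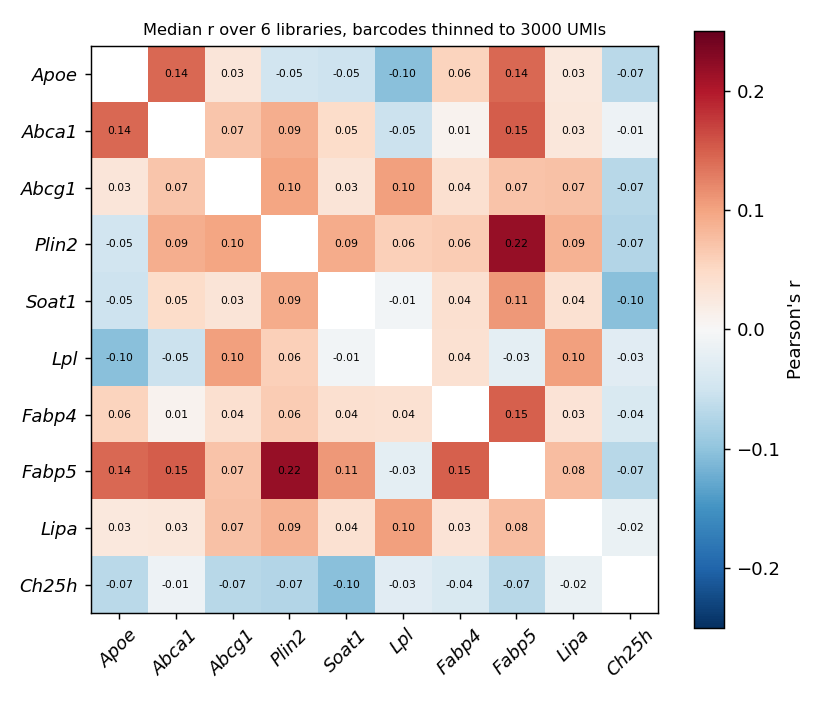
Median Pearson's r over 6 libraries for each pair of members in gated barcodes thinned to 3000 UMIs, with colour from -0.25 (blue) to 0.25 (red). Plin2 with Fabp5 (0.22) is the highest pair and Soat1 with Ch25h (-0.10) the lowest.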

How the data were processed

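Single CD45-positive cells of 6 tumors were sequenced with a 10X 3′ kit. The deposited file holds unnormalized UMI counts from the authors, in 1 matrix of 20649 genes and 9235 barcodes with suffixes 3 to 8. The submitters' processing notes name Cell Ranger 1.2, Seurat 3.1.5, R 4.0.1 and mm10. Intronic counting is not given in the sources used here, doublets were not called, and mixed barcodes are described by their marker UMIs. A 3′ count reflects transcripts captured near their end, so levels were compared within a gene.

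Counts were summed per library and state and divided by the total (numpy 2.4.6, scipy 1.17.1). The 2-fold rule was tested on simulated data, and the outcome of that test is not reported here. Members, gene lists and rules were chosen with earlier results of these data known. The named genes were the 10 members, lipid genes called between C1qa-high and Ly6c2-positive barcodes, and the 3 genes with the highest median r to each member among genes with a mean of at least 0.1 UMI per thinned barcode. Some genes that this rule names are not reported here. Alternatives varied the gate, the state rules, the fold, the filter, the denominator, the depth and the libraries. The comparison of exoASO-STAT6 with exoASO-Scramble, planned with edgeR, was not run, and neither were its alternatives. Total counts per library ranged from 11492757 to 33902084.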

Additional observations from a re-analysis of the deposited data

Results flagged for a closer look

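Among the 10 genes in gated monocytes/macrophages, 2 had 1 library far from the other 5, by the gap to the nearest library divided by the whole range (Dixon's limit at 95%). Chance gives such a gap in about 1 of 20 groups. Fabp4 was at 46.3 CPM in library 3, with a gap of 0.700 of the range, and was at 24.7 CPM in the next library. Fabp5 was at 2059 CPM in library 6, with a gap of 0.692 of the range, and was at 938 CPM in the next. In lymphocyte barcodes without Csf1r or Adgre1 UMIs, Fabp5 was at 237 CPM in library 6 and at 79.9 to 506 CPM in the others.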

How the results depend on the processing

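No paired analysis was possible because no label ties a library suffix to a tumor or a treatment. For the same reason no result bears on exoASO-STAT6. Levels rest on counts, and Fabp4 in particular was too sparse for small differences. Leaving out each library in turn, the log2 difference between C1qa-high and Ly6c2-positive barcodes ranged from 1.07 to 1.55 for Apoe, 2.04 to 2.51 for Ch25h, 0.32 to 0.51 for Lipa, 0.27 to 0.49 for Abca1, 0.11 to 0.28 for Abcg1, 0.05 to 0.81 for Fabp4, -0.45 to -0.34 for Plin2, -0.68 to -0.55 for Soat1, -1.09 to -0.57 for Lpl and -0.91 to 0.01 for Fabp5. The mean of log2 differences within libraries was 0.17 for Fabp5. With the state rules other than that of C1qa at 1 UMI, Apoe was at 0.87.

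Genes called higher and lower in C1qa-high barcodes numbered 271 and 268. They were 663 and 413 with a mean of at least 1 CPM, 68 and 138 with at least 50 CPM, 640 and 629 at 1.5-fold, and 76 and 70 at 4-fold, where 1 of the 2 members called, Ch25h, remained. The median log2 difference of the members moved from -0.11 to -0.65 in neutrophil-rule and from -0.59 to -2.16 in dendritic-rule barcodes when only those without Csf1r, Adgre1 or lymphocyte UMIs were used. Pairs with a median r of at least 0.1 numbered 8, and 5 by Spearman, 3 after thinning to 1000 UMIs, 18 without thinning, and 5 to 8 with each library left out (5 without library 7 or 8). Without mitochondrial and ribosomal protein UMIs in the total, all 10 gated levels were higher, and 4 of them by more than 1 SD between libraries, with Abca1 at 211 in place of 178 CPM, Abcg1 at 156 in place of 132, Soat1 at 181 in place of 153 and Lipa at 127 in place of 107. With Flt3 at 3 UMIs, Apoe and Ch25h in dendritic-rule barcodes moved from log2 differences of -0.81 and -0.71 to -1.15 and -2.05. The causes were not tested. Over the 4 usable libraries alone, 182 genes were called higher and 195 lower in Cd163-positive barcodes, in place of 206 and 196. The alternatives on depth and on the Rsad2, Mmp12 and Cd163 states were chosen after seeing the data.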
